A study of Homo sapiens with 30 samples.

Results

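The SR splicing factors are described here by the 10 rows of the deposited count table whose gene symbol is SRSF1, SRSF2, SRSF3, SRSF4, SRSF5, SRSF6, SRSF7, SRSF9, SRSF10 or SRSF11, out of 60664 genes in the table. Each row was followed over 10 groups of 3 libraries. RNA came from HEK293 cells, a human embryonic kidney line, in its Flp-In T-REx form, which carries a transgene at a fixed site under a tetracycline-controlled promoter. Here the transgene is TIA1a fused to GFP (TIA1 binds RNA and helps stress granules form), either wild type (the WT line) or with the mutation of Welander distal myopathy (the WDM line). Cytosol libraries were made from both lines untreated, with tetracycline (tet), and with tetracycline plus 0.5 mM sodium arsenite for 60 minutes. Granule libraries were made from both lines with tetracycline alone and with tetracycline plus arsenite, by pelleting granule cores from the lysate and capturing the GFP tag on beads. Each genotype is represented by 1 cell line, so the mutation and other differences between the lines cannot be told apart. The labels do not say that the 3 replicates of a group were separate cultures, and p-values here measure the spread between these libraries.

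SR proteins bind exonic and intronic sequences of pre-mRNA through RNA recognition motifs and bring the spliceosome to splice sites through a domain rich in arginine and serine. They are phosphorylated by the SRPK and CLK kinases, which sets where they reside, and several of them shuttle to the cytoplasm with mRNA. Many SR genes hold a conserved alternative exon with a premature stop, so that a share of their transcripts is a target of nonsense-mediated decay. SRSF4, SRSF5 and SRSF6 are among the members with a second, degenerate recognition motif, SRSF7 has a zinc knuckle, and SRSF10 and SRSF11 are more distant in sequence.

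Total counts ran from 7971585 to 18884843 in the 18 cytosol libraries and from 5906167 to 27419145 in the 12 granule libraries. Levels are given as CPM, read counts scaled to library size, here with TMM factors over the 30 libraries. Epithelial markers (KRT8, KRT18, KRT19, EPCAM and CDH1) summed to between 309 and 610 CPM in cytosol, and immune markers to at most 1.52 CPM. Kidney lineage markers summed to 7.06 to 20.2 CPM in cytosol, with PAX8 under 1 CPM on average. Neural and adrenal lineage markers summed to 105 to 232 CPM, with DBH and NEFM under 1 CPM on average. The row of TIA1 held at most 0.0751 CPM in any of the 30 libraries, so the induction of the transgene could not be checked from it. Nuclear RNA (NEAT1, MALAT1, KCNQ1OT1 and MEG3) summed to between 220 and 794 CPM in cytosol and between 2200 and 3586 CPM in granules, with MEG3 under 1 CPM on average in both. In tetracycline-treated WT cytosol the sum of nuclear RNA was 517 CPM in 1 library and at most 226 CPM in the other 2.

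SRSF5, SRSF6 and SRSF9 passed the test for a rise with tetracycline in both lines (values below), and their promoters are shown for that reason alone. They come from RefSeq on GRCh38.p14, run 5′ to 3′ on the gene's strand from upstream of the annotated start to shortly after it, and capitals mark motif matches. Motifs were searched on both strands. They were CCAAT, a common element near promoters, and GGGCGG, the site known to be bound by Sp-family factors. TATAAA, the core promoter element, and GAANNTTC, the core of a heat shock element, were also searched. RefSeq promoters were matched for 9 of the 10 members, not for SRSF2.
SRSF5, chr14:69766892-69767191, plus strand: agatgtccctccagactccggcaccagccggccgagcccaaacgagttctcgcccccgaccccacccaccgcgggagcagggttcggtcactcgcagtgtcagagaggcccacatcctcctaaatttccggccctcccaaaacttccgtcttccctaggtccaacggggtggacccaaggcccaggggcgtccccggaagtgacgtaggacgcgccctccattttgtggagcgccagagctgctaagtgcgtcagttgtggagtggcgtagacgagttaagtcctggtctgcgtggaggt
SRSF6, chr20:43457646-43457945, plus strand: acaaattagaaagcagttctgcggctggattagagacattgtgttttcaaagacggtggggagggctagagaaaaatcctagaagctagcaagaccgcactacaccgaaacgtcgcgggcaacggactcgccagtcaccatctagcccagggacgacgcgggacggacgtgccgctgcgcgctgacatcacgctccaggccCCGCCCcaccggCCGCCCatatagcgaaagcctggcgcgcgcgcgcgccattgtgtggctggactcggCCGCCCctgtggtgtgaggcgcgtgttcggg
SRSF9, chr12:120469699-120469998, minus strand: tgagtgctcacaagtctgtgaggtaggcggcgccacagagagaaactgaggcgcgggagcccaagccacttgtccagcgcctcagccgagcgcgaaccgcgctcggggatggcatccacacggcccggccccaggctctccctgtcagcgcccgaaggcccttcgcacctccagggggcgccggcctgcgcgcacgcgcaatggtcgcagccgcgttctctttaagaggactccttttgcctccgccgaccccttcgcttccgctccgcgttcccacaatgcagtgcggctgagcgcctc
The SRSF6 window holds GGGCGG 3 times, each on the reverse strand, where it reads CCGCCC. In the SRSF5 and SRSF9 windows none of the 4 motifs was found. Among 35116 RefSeq promoter windows of this length, GGGCGG occurs in 45.0%, CCAAT in 34.6%, TATAAA in 11.5% and GAANNTTC in 6.77%.

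SRSF1 and SRSF6 had few counts, and each lies almost whole inside another gene of the same strand. SRSF1 (ENSG00000136450, GRCh38 chr17:58000919-58007346, minus strand) held 361 counts over the 30 libraries, and SRSF6 (ENSG00000124193, chr20:43457893-43466046, plus strand) held 2038. The other 8 members held between 48448 and 167101. A gene annotated on the same strand, ENSG00000266086, covers the SRSF1 span except for 100 bp at its 5′ end (chr17:58007247-58007346), which is 1.56% of the span. ENSG00000288000 likewise covers the SRSF6 span except for 161 bp at its 5′ end (chr20:43457893-43458053), 1.97% of the span. Among protein-coding genes of the table, 92.3% of the 1065 whose span lies to at least 99% inside same-strand genes held at most 30 counts over the 30 libraries, against 30.9% of the 6822 with no overlap. Where such covered genes shared under 5% of their exon length with the exons of the other gene, 236 of 240 held at most 30 counts. SRSF1 and SRSF6 fall just short of 99% of the span, and 32.7% and 13.4% of their exon length lies in exons of the other gene. How the counting treated reads in overlapped parts is not given in the sources used here, so which part of these 2 genes their counts come from was not tested, and the counts may not stand for the whole transcripts. Of the other members, SRSF2 lies opposite MFSD11 (27.7% of its exon length) and SRSF9 opposite GATC (43.6%). Pseudogenes of the family held at most 327 counts in any of 11 rows.

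For the 8 members whose span is mostly free of other same-strand genes, levels per kilobase of the MANE Select transcript set the order of abundance. In untreated WT cytosol SRSF9 led with 198 ± 10.7 CPM per kb (SD, n = 3). SRSF2 followed with 165 ± 16.1, SRSF7 with 148 ± 6.81 and SRSF3 with 131 ± 2.46 CPM per kb. SRSF2 and SRSF7 overlapped between libraries, and other neighbours in this order did not. SRSF5 stood at 79.7 ± 7.37, SRSF4 at 64.0 ± 2.86, SRSF11 at 44.8 ± 0.946 and SRSF10 at 36.1 ± 1.39 CPM per kb. In arsenite-treated WDM granules the order was different. SRSF2 stood at 85.3 ± 24.3 CPM per kb, SRSF9 at 74.5 ± 11.3, SRSF4 at 64.2 ± 8.51 and SRSF11 at 44.8 ± 4.65. Libraries of SRSF2 and SRSF9 overlapped, as did those of SRSF9 and SRSF4. SRSF7, SRSF5 and SRSF3 followed at 33.6 ± 4.76, 32.2 ± 4.98 and 30.5 ± 5.26 CPM per kb, overlapping each other, and SRSF10 was lowest at 21.4 ± 3.36. These levels assume that reads fall on the MANE transcript alone.

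**Figure D1:**
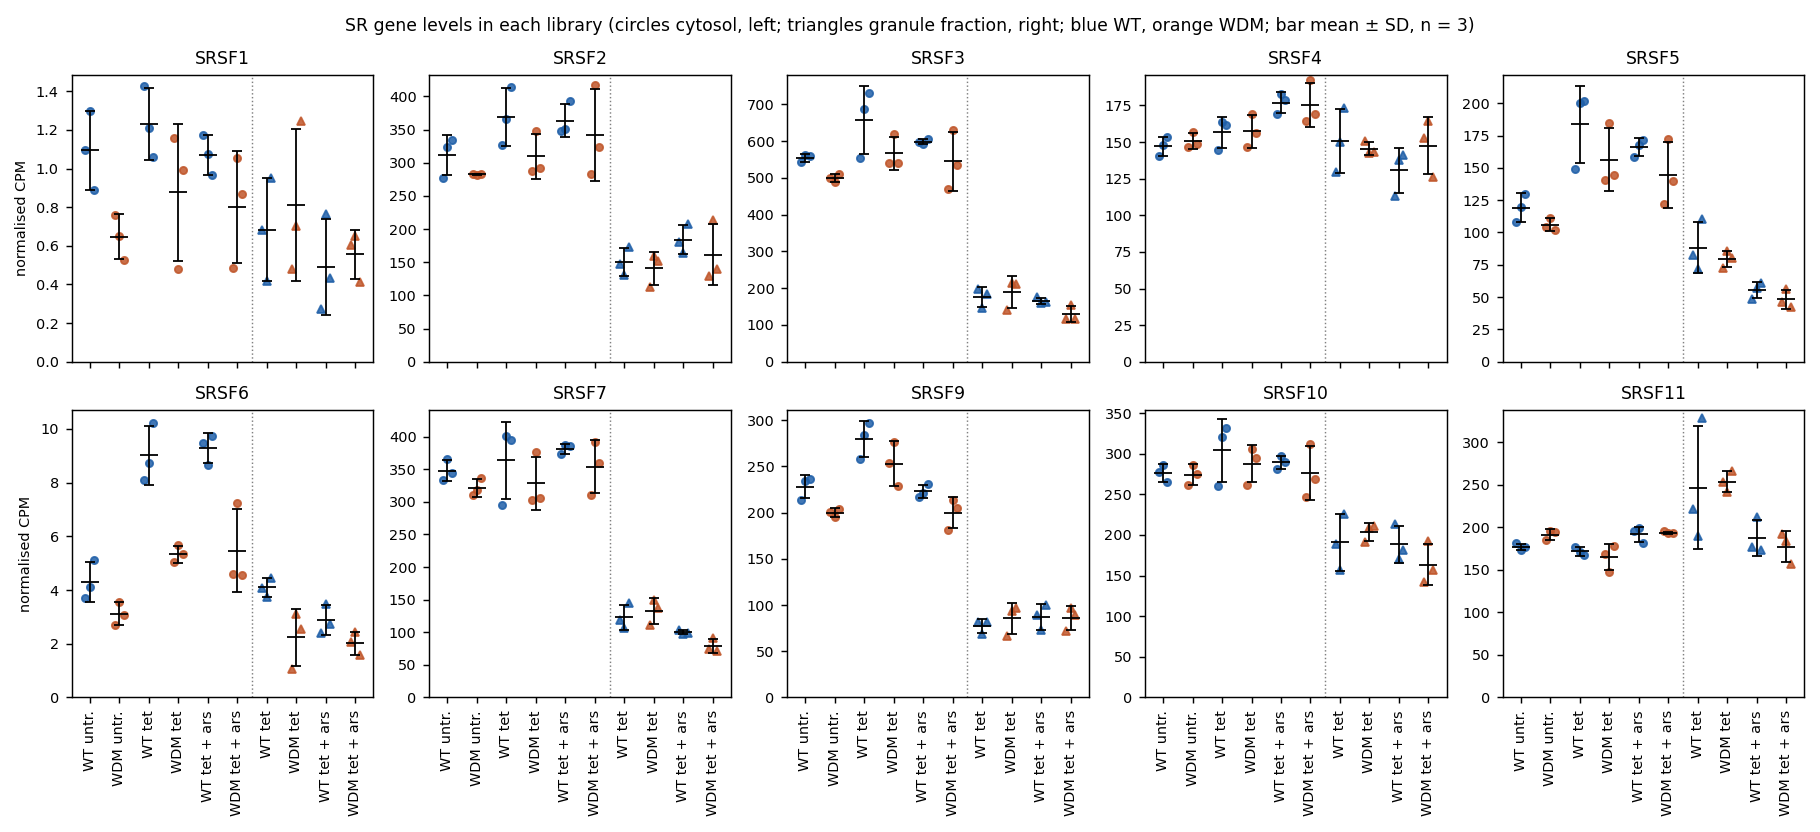
Normalised CPM (vertical axis, from 0) of each SR gene in the 30 libraries (points), with mean and SD for the 10 groups of 3; circles are cytosol and triangles granules, blue WT and orange WDM, "untr." is untreated and "ars" arsenite. SRSF3 granule libraries sit between 116 and 215 CPM, below the 470 to 731 CPM of its cytosol libraries, while the ranges of SRSF4 and SRSF11 overlap between the fractions, with 1 WT tetracycline granule library of SRSF11 at 329 CPM.

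Most SR mRNAs were poorer in the granule fraction than in cytosol of the same cells, in both lines and with or without arsenite. With tetracycline alone, 7 of 10 members were lower and 1 was higher in WT granules, and the same counts were found in WDM. With arsenite, 9 were lower in WT and 8 in WDM, with none higher. The test was edgeR's quasi-likelihood F-test with Benjamini-Hochberg adjustment over 18141 genes, called at an adjusted p under 0.05. Granules and cytosol differed for most genes, with 36.2% of all genes called lower in WT with tetracycline, 35.3% in WDM, 35.5% in WT with arsenite and 35.7% in WDM with arsenite (75.7, 71.1, 70.5 and 72% in either direction). The median log2 fold change of the members, granule minus cytosol, was -1.10, -1.09, -1.22 and -1.19 in that order, beside 0.07, 0.02, 0.05 and 0.06 for all genes tested. The differences were between RNA pools of unequal composition. Nuclear RNA markers, as a sum, were higher in each granule library than in each cytosol library. With tetracycline the 3 markers tested were each called higher in both lines. With arsenite 2 were called higher and 1 was not, in each line. The part of nuclear RNA in the result was not tested.

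SRSF3, an SR protein that also aids mRNA export, had the highest CPM of the family in cytosol. In WT cytosol with tetracycline it stood at 555, 687 and 731 CPM, and in WT granules at 198, 147 and 184. With arsenite the WT libraries stood at 598, 593 and 606 CPM in cytosol and 176, 159 and 163 in granules. Each granule library lay below each cytosol library in both treatments. The log2 fold changes were -1.91 ± 0.17 (SE) in WT and -1.62 ± 0.17 in WDM with tetracycline, and -1.86 ± 0.17 and -2.12 ± 0.17 with arsenite, with adjusted p of at most 1.7e-09 in edgeR.

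SRSF7, whose zinc knuckle sets it apart in the family, stood at 303, 376 and 306 CPM in WDM cytosol with tetracycline and at 111, 149 and 137 in the granules. With arsenite WDM cytosol held 311, 392 and 360 CPM, and the granules 74.4, 91.9 and 71.0. Fractions did not overlap in either case, and the granule libraries with arsenite lay below those without. Its log2 fold change was -1.57 ± 0.15 in WT and -1.34 ± 0.15 in WDM with tetracycline, and -1.94 ± 0.15 and -2.20 ± 0.16 with arsenite.

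SRSF9, a short SR protein, stood at 258, 283 and 297 CPM in WT cytosol with tetracycline and at 81.9, 68.1 and 82.0 in the granules. With arsenite the values were 216, 221 and 230 in cytosol and 89.0, 72.5 and 100 in granules. Granule libraries overlapped between the treatments, while the cytosol values were lower with arsenite. The log2 fold change was -1.86 ± 0.15 in WT and -1.59 ± 0.15 in WDM with tetracycline, and -1.35 ± 0.15 and -1.26 ± 0.15 with arsenite. GATC, annotated on the opposite strand over part of SRSF9, had log2 fold changes of -2.01, -1.72, -1.87 and -1.97 in the same 4 comparisons.

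SRSF2, an SR protein classically linked to nuclear speckles, stood at 327, 367 and 415 CPM in WT cytosol with tetracycline and at 148, 131 and 173 in granules. Its log2 fold changes ranged from -0.99 (WT with arsenite) to -1.31 (WT with tetracycline), and no library of one fraction reached those of the other. SRSF5, an SR protein with 2 recognition motifs, stood in WT granules at 82.6, 71.9 and 110 CPM with tetracycline and at 48.5, 57.1 and 60.9 with arsenite. In WT cytosol it stood at 149, 200 and 202 CPM with tetracycline and at 158, 167 and 172 with arsenite. Its log2 fold changes were -1.07 ± 0.16 and -1.01 ± 0.16 with tetracycline in WT and WDM, and -1.58 ± 0.16 and -1.63 ± 0.16 with arsenite. SRSF10, a splicing repressor when dephosphorylated, differed less, with log2 fold changes from -0.53 to -0.79, each called.

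SRSF6, with 161 bp free of the overlapping gene, stood at 8.11, 8.72 and 10.2 CPM in WT cytosol with tetracycline (101 to 116 counts) and at 4.09, 3.75 and 4.46 CPM in granules (24 to 108 counts). Its log2 fold change ran from -1.13 to -1.68 over the 4 comparisons and was called in each. SRSF1, with 100 bp free, held 4 to 23 counts per library in tetracycline WT granules and 12 to 19 in the matched cytosol. It was called in 1 comparison, WT with arsenite, at -1.08 ± 0.40 (edgeR adjusted p = 0.0173), and that call was lost without the first or the third granule library (-0.85 and -0.97) and with DESeq2 (-1.06, adjusted p = 0.0525).

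Of the 8 members mostly free of other same-strand genes, SRSF4 and SRSF11 were not called lower in granules with tetracycline alone. SRSF4, an SR protein with a long arginine/serine-rich tail, stood at 144, 164 and 162 CPM in WT cytosol with tetracycline and at 130, 150 and 173 in granules. The fractions overlapped, and the log2 fold changes were -0.06 in WT and -0.14 in WDM, with 95% intervals of -0.33 to 0.20 and -0.41 to 0.12. With arsenite it was lower in granules by log2 values of -0.44 ± 0.13 in WT and -0.29 ± 0.13 in WDM (edgeR adjusted p = 0.00338 and 0.0463). The WT call was lost without the low-count filter (-0.34, adjusted p = 0.0800). The WDM call was lost in 4 of 6 fits that left out a library and 4 of 6 other settings, with values from -0.19 to -0.32.

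SRSF11, a more distant relative of the classical SR proteins, was higher in granules with tetracycline alone. WT cytosol held 177, 170 and 168 CPM, and WT granules 221, 190 and 329. WDM cytosol held 169, 148 and 178 CPM, and WDM granules 253, 242 and 267. Each granule library exceeded each cytosol library of its line. The log2 fold change was 0.51 ± 0.15 in WT (edgeR adjusted p = 0.0029) and 0.59 ± 0.15 in WDM (0.000941), against a background of 39.5% and 35.8% of all genes called higher. The WT value was 0.25 (adjusted p = 0.103) without the third granule library, the one at 329 CPM. With arsenite SRSF11 was not called, at -0.04 (95% interval -0.34 to 0.26) in WT and -0.17 (-0.47 to 0.14) in WDM.

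**Figure D2:**
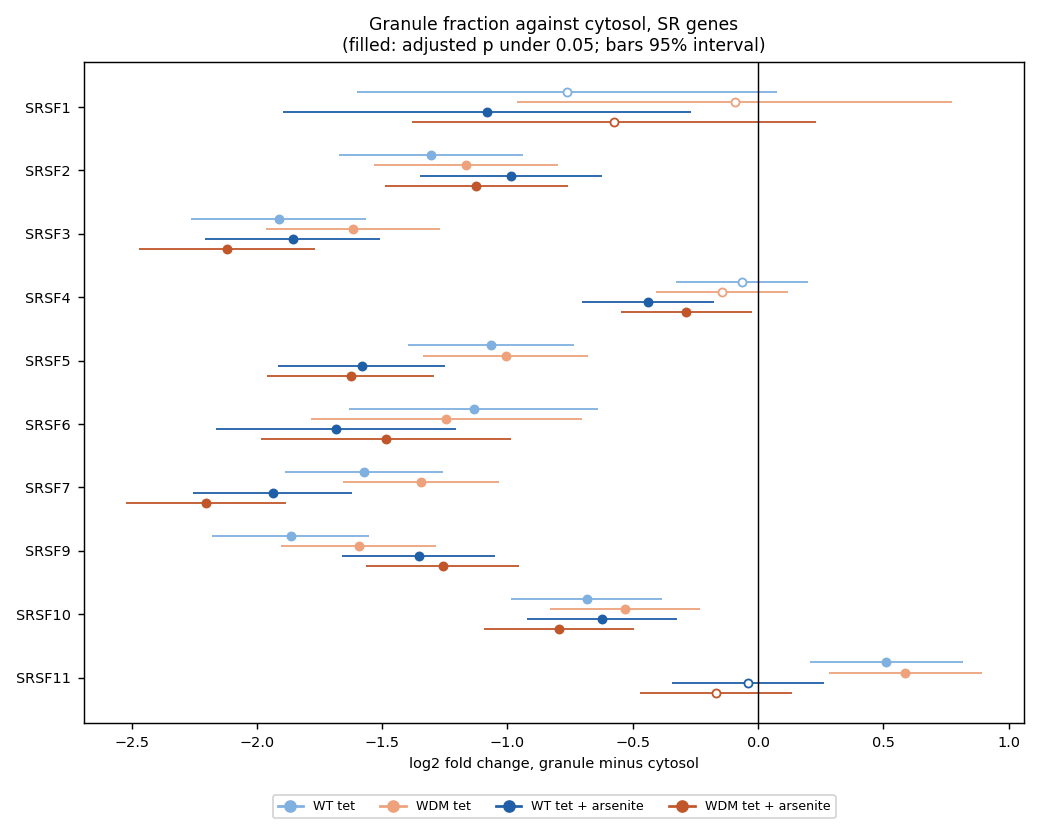
Log2 fold change, granule minus cytosol (horizontal axis), for each SR gene in 4 comparisons; filled points have an adjusted p under 0.05 and bars are 95% intervals. SRSF3, SRSF7 and SRSF9 lie between -1.26 and -2.20, and SRSF11 lies above 0 with tetracycline alone and near 0 with arsenite.

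The change of this difference with arsenite was tested as an interaction. In WDM cells it was called for SRSF7 (-0.86 ± 0.21, edgeR adjusted p = 0.00402), SRSF11 (-0.75 ± 0.21, 0.00963) and SRSF5 (-0.62 ± 0.23, 0.0447), each towards lower granule levels. In WT cells it was called for SRSF11 (-0.55 ± 0.21, 0.0453). Over all genes 24.2% were called in WDM and 31.4% in WT, and the median interaction of all genes was -0.17 and -0.21. Called lower were 16.5% of all genes in WDM and 19.4% in WT, beside 3 and 1 of the 10 members. The WT call for SRSF11 was lost in 9 of 12 fits that left out a library (-0.28 without WT tetracycline granule library 3) and in 3 of 6 other settings. The WDM call for SRSF5 was lost in 8 of 12 such fits, with values from -0.47 to -0.63, and in 4 of 6 other settings: no low-count filter, the groups compared alone, and scaling by RLE or by library size. SRSF9 had values in the other direction, 0.51 in WT (adjusted p = 0.0631) and 0.34 in WDM (0.253), and did not pass. In WT it was called in 4 of 6 other settings, among them DESeq2 (0.56, adjusted p = 0.0329), and in 2 of 12 fits that left out a library. Between the lines, the granule difference was called for none of the 10 members with tetracycline or with arsenite (0 at an unadjusted p under 0.05 in edgeR, 0 with DESeq2), beside 0.00551% of all genes in each.

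Gene span and transcript length are given beside these differences as a description across genes. Over 13166 genes, granule-minus-cytosol log2 fold changes had a Spearman rho of 0.51 to 0.64 with gene span and of 0.52 to 0.63 with MANE transcript length; genes are not independent replicates, and no p is given. The median gene spanned 37415 bp. SRSF11, the member with the highest values, spans 47371 bp, and SRSF4 spans 34158 bp. SRSF5, which was lower in granules, is annotated over 45106 bp (chr14:69726900-69772005). Its promoter window printed above, at chr14:69766892-69767191, lies well inside that span. From that start the gene is much shorter, so SRSF5 cannot be placed firmly among the long members. The other 7 members span between 3219 and 16581 bp. MANE length did not separate the members: 5 lie above and 5 below the median of 3481.5 nt. SRSF10 (7656 nt), SRSF1 (5343), SRSF6 (4353) and SRSF3 (4228) are longer than that median and had negative values in each comparison, as had SRSF5 at 1496 nt, while SRSF11 has 3959 nt. U content of the transcript, the base TIA1 is known to favour, had a rho between -0.10 and 0.07 across genes, and SRSF3 transcripts held 31.8% U against a median of 25.1%.

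Other splicing and decay genes were counted in the same way. Beside each count, 39.5% of all genes were called higher and 36.2% lower in WT with tetracycline, and 35% higher and 35.5% lower in WT with arsenite. Of 20 SR-related and partner genes 19 were tested, and with tetracycline in WT 5 were higher in granules and 10 lower (median -0.42); with arsenite in WT 1 was higher and 13 lower (-0.82). SRRM2, a large scaffold of nuclear speckles, was higher in WT granules (2.39 with tetracycline and 2.48 with arsenite), and ALYREF, an mRNA export adaptor, was lower (-2.03 and -1.45). Of 20 tested hnRNP genes, splicing regulators that often oppose SR proteins, 11 were lower and 1 higher in WT with tetracycline, and 8 were lower and none higher with arsenite; HNRNPH2 was lower at -1.97 and -1.38. Among the kinases and importers, 2 of 8 were higher and 1 lower in WT with tetracycline, and 2 were higher and 5 lower with arsenite. SRPK2, which phosphorylates SR proteins in the cytoplasm, was higher at 1.66, and TNPO3, their import receptor, was lower at -0.29. Of 9 tested nonsense-mediated decay genes 6 were higher and 2 lower in WT with tetracycline, with SMG1 at 1.90 and SMG6 at 1.88, and 5 were higher and 3 lower with arsenite. No test compared the lists.

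**Figure D3:**
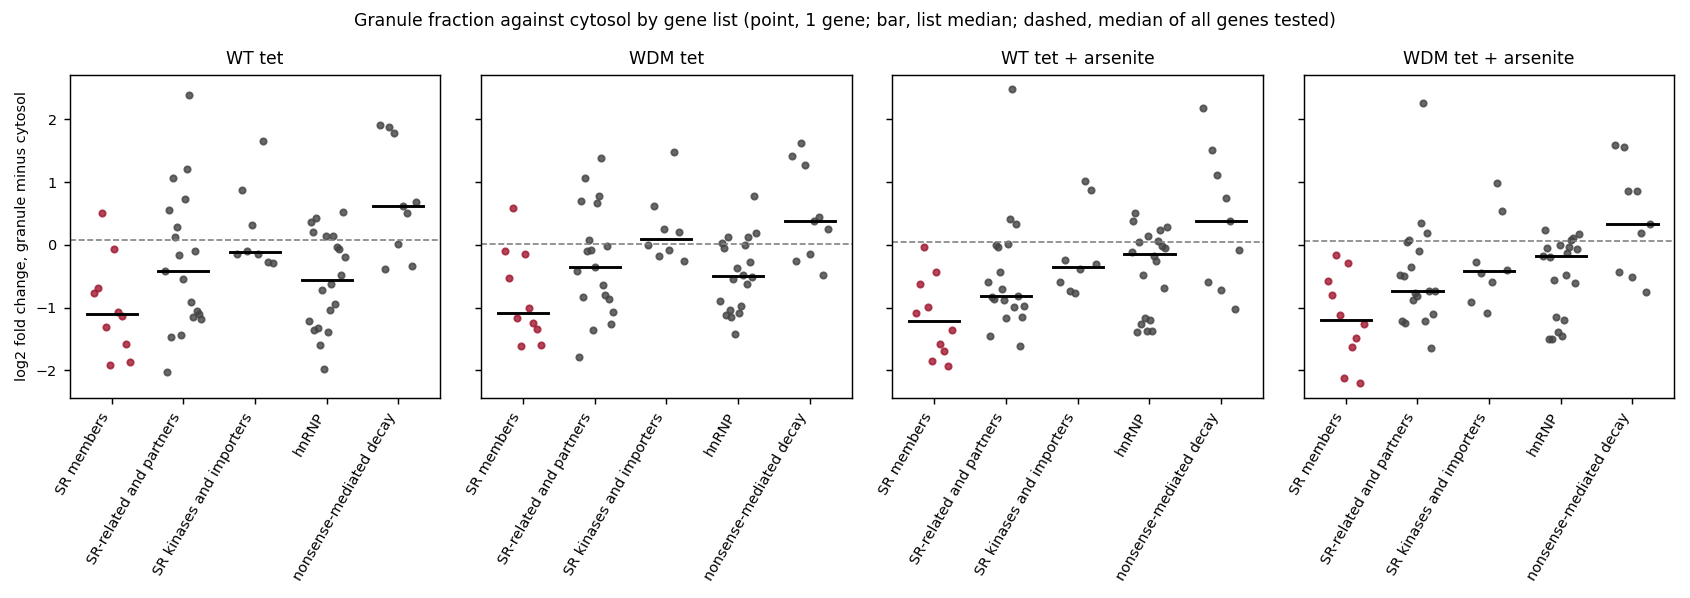
Log2 fold change, granule minus cytosol (vertical axis), for each gene (points) of 5 lists in 4 comparisons, with the list median (bar) and the median of all genes tested (dashed line). The SR members have list medians between -1.09 and -1.22, and the highest point of the decay list is 1.90 in WT with tetracycline.

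In the cytosol, tetracycline was followed by higher SRSF5, SRSF6 and SRSF9 in both lines. These are 3 of 10 members in WT and 3 of 10 in WDM, beside 2.93% and 3.07% of all genes called higher (5.31% and 6.3% in either direction). The same groups also differed in composition. Mitochondrial RNA markers summed to 874 to 1002 CPM untreated and 524 to 837 with tetracycline in WT. In WDM the sums were 1021 to 1238 and 680 to 757 CPM, and their part in the result was not tested. SRSF5 stood at 108, 120 and 130 CPM in untreated WT cytosol and at 149, 200 and 202 with tetracycline. In WDM it stood at 105, 111 and 102 CPM untreated and at 140, 184 and 144 with tetracycline. Neither line's groups overlapped, and the log2 fold changes were 0.61 ± 0.13 (edgeR adjusted p = 0.0117) and 0.56 ± 0.13 (0.0139).

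SRSF9 stood at 213, 234 and 236 CPM untreated and 258, 283 and 297 with tetracycline in WT, a log2 fold change of 0.28 ± 0.08 (edgeR adjusted p = 0.0497). In WDM it stood at 200, 195 and 204 CPM untreated and 253, 277 and 229 with tetracycline, at 0.33 ± 0.08 (0.0207). The groups did not overlap in either line, and both changes were small. SRSF6 stood at 3.69, 4.11 and 5.13 CPM untreated and 8.11, 8.72 and 10.2 with tetracycline in WT (1.05 ± 0.19, 0.00472), and at 2.70, 3.56 and 3.09 against 5.03, 5.66 and 5.33 in WDM (0.77 ± 0.20, 0.0243). These SRSF6 values rest on 35 to 116 counts per library. Calls depended on single libraries: leaving out one library at a time left 1 to 4 members called in WT and 0 to 2 in WDM, and the 3 libraries whose removal ended every WDM call were untreated 1, untreated 3 and tetracycline 2. The log2 fold changes stayed between 0.54 and 0.62 for SRSF5 in WT where its call was lost. The SRSF9 call was lost in 5 of 6 such fits in each line and the SRSF6 call in WDM in 4 of 6. The response was not called different between the lines by the interaction test for any of the 10 members (0 at an unadjusted p under 0.05, 0 with DESeq2, and 0.018% of all genes). The difference between lines was -0.06 for SRSF5 (95% interval -0.44 to 0.32) and -0.27 for SRSF6 (-0.86 to 0.31).

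Arsenite added to tetracycline moved few members in cytosol. SRSF9 was lower in both lines, by log2 values of -0.34 ± 0.08 in WT (edgeR adjusted p = 0.00543) and -0.34 ± 0.08 in WDM (0.00568), and its WDM libraries fell from 253, 277 and 229 to 181, 213 and 205 CPM. GATC, on the opposite strand, was also lower (-0.31 and -0.29). SRSF11 was higher in WDM, with 169, 148 and 178 CPM before and 195, 193 and 193 after (0.23 ± 0.07, 0.0219). That call was lost without WDM tetracycline library 2 (0.16) or arsenite library 1 (0.22), and without the low-count filter (0.24). Both WDM calls were lost with the groups compared alone. In all, 1 of 10 members was called in WT and 2 in WDM, beside 29% and 28.8% of all genes (15.4% and 14.8% lower, and 14.1% higher in WDM). The 95% intervals of the other members lay within -0.43 and 0.39, except for SRSF1 and SRSF6, which ran from -0.86 to 0.56.

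Against untreated cells, the arsenite groups had higher SRSF4, SRSF5 and SRSF6 in both lines. This comparison shares its arsenite libraries with the one above and its untreated libraries with the tetracycline comparison. SRSF4 went from 140, 148 and 153 CPM to 169, 183 and 179 in WT, without overlap, at 0.24 ± 0.08, and it was 0.21 ± 0.08 higher in WDM. SRSF5 was 0.45 ± 0.13 and 0.44 ± 0.13 higher, and SRSF6 1.08 ± 0.19 and 0.81 ± 0.19. These were 3 of 10 members in each line, beside 15.2% of all genes called higher in WT and 19% in WDM (32.3% and 39.1% in either direction). The SRSF4 call was lost in 4 of 6 fits that left out a library in each line, and in WDM also without the low-count filter (0.19, adjusted p = 0.158). Without WT untreated library 1, or without WDM arsenite library 2, 1 member was called.

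Among other genes in cytosol with arsenite, CLK2 and CLK3 were called higher in both lines and CLK1 and CLK4 in WDM. CLK2, which releases SR proteins from speckles, was 0.76 higher in WT and 0.87 in WDM, and it had been lower with tetracycline (-0.43 and -0.58). CLK3 was 0.25 higher in WT and 0.35 in WDM. CLK1 and CLK4 were 0.51 and 0.48 higher in WDM, and in WT their values were 0.20 (edgeR adjusted p = 0.209) and 0.26 (0.0662). Of 8 kinases and importers 2 were called higher in WT and 4 in WDM, with none lower, beside 13.7% and 14.1% of all genes called higher and 15.4% and 14.8% lower. Of the 19 SR-related genes tested 5 rose and 1 fell in WT, with NXF1, the mRNA export receptor, at 0.41 in WT and 0.62 in WDM. The hnRNP list had 1 lower and none higher in WT, of 20 tested. Nuclear RNA markers summed to between 220 and 517 CPM in WT cytosol with tetracycline and between 521 and 567 with arsenite. In WDM cytosol the sums overlapped, at 341 to 667 and 546 to 794 CPM, and their part in these results was not tested.

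**Figure D4:**
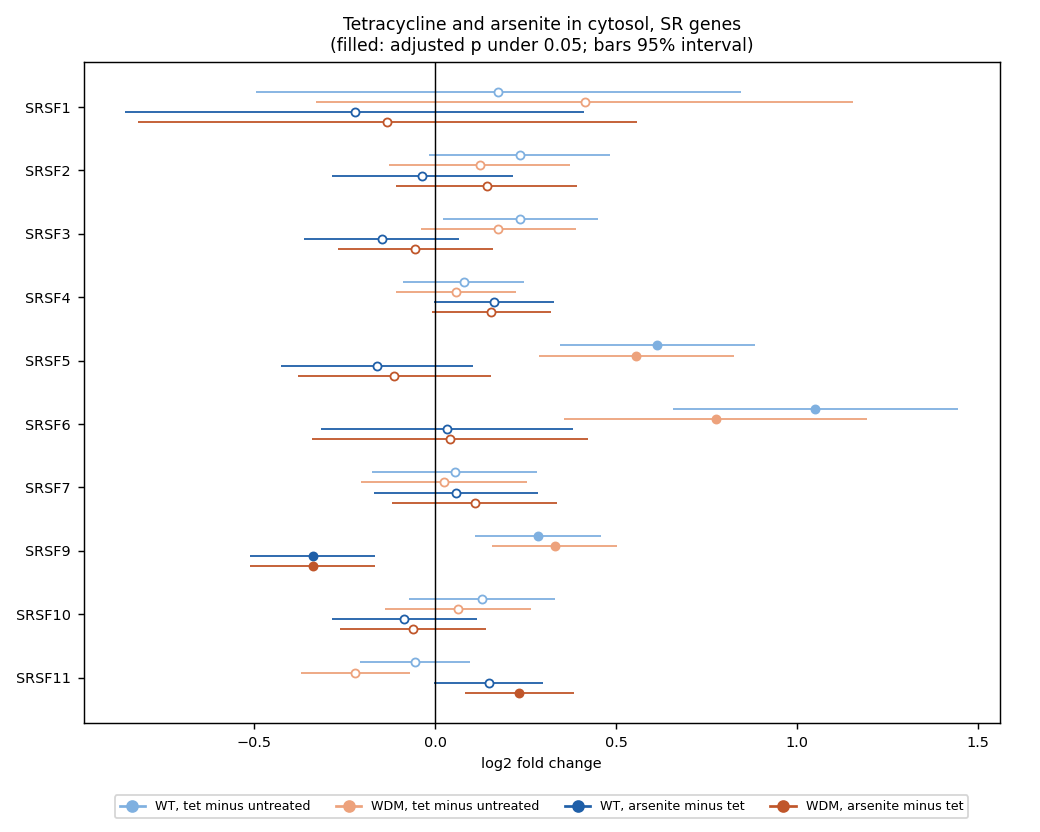
Log2 fold change in cytosol (horizontal axis) for each SR gene, tetracycline minus untreated (light) and arsenite with tetracycline minus tetracycline (dark), in WT (blue) and WDM (orange); filled points have an adjusted p under 0.05, bars are 95% intervals. SRSF5, SRSF6 and SRSF9 lie right of 0 with tetracycline, and SRSF9 lies left of 0 with arsenite at -0.34 in each line.

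Within the granule fraction, arsenite was followed by less SRSF5 in both lines. WT granules held 82.6, 71.9 and 110 CPM without and 48.5, 57.1 and 60.9 with arsenite, and WDM granules 72.8, 85.4 and 80.4 without and 45.9, 56.5 and 42.1 with it. The groups did not overlap, and the log2 fold changes were -0.57 ± 0.16 (edgeR adjusted p = 0.0102) and -0.65 ± 0.16 (0.00302). SRSF7 fell in WDM from 111, 149 and 137 to 74.4, 91.9 and 71.0 CPM (-0.66 ± 0.16, 0.00164). SRSF3 and SRSF11 were called lower in WDM at -0.47 ± 0.17 (0.0336) and -0.44 ± 0.17 (0.0435), and SRSF3 libraries overlapped between the groups. The share of members called lower was 4 of 10 in WDM and 1 of 10 in WT, beside 17.7% and 14.1% of all genes (36.3% and 30.6% in either direction). Mitochondrial RNA markers summed to between 1598 and 3040 CPM in WT granules without arsenite and between 433 and 1009 with it. In WDM granules the sums overlapped, at 824 to 2620 and 656 to 1130 CPM, and their part in the result was not tested. The WT call for SRSF5 was lost without WT tetracycline library 3 (-0.41) or arsenite library 1 (-0.48). In WDM no fit that left out a library kept 4 calls: 2 members were called without tetracycline library 2 or 3, or without arsenite library 3. The SRSF11 call was lost in 5 of 6 such fits and in 3 of 6 other settings (library size alone, no low-count filter and the replicate block, -0.44). The SRSF3 call was lost in 4 of 6 and in 3 of 6 (library size alone, no filter and the groups compared alone). The response of the lines was not called different for any member (1 at an unadjusted p under 0.05, SRSF7, 0 with DESeq2); the difference was -0.47 for SRSF7 (95% interval -0.92 to -0.01) and -0.08 for SRSF5 (-0.55 to 0.39).

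Between the lines, SRSF6 was the member called in cytosol, with tetracycline and with arsenite. With tetracycline WT libraries held 8.11, 8.72 and 10.2 CPM and WDM libraries 5.03, 5.66 and 5.33. With arsenite they held 9.46, 8.66 and 9.75 against 4.6, 7.25 and 4.56. The log2 fold change, WDM minus WT, was -0.74 ± 0.18 (edgeR adjusted p = 0.00794) and -0.74 ± 0.17 (0.00634), beside 6.84% and 5.37% of all genes called lower (12.6% and 10.4% in either direction). Without WT tetracycline library 3 the first was -0.64 (adjusted p = 0.0528), and without library 1, the one with 517 CPM of nuclear RNA, 5 members were called. Untreated it was -0.47 (-0.91 to -0.03) and not called, with 0 of 10 members called (2 at an unadjusted p under 0.05, SRSF6 and SRSF9, and 0 with DESeq2) beside 9.78% of all genes. With the groups compared alone, SRSF2, SRSF3, SRSF5 and SRSF9 were called lower in untreated WDM (-0.14 to -0.19, edgeR adjusted p at most 0.0354). The untreated lines differed in nuclear RNA markers, which summed to 339 to 406 CPM in WT cytosol and 614 to 670 in WDM. In tetracycline and arsenite cytosol these sums overlapped between the lines, and their part in the line differences was not tested. SRSF6 lies on chromosome 20, where 351 tested genes past position 10 Mb had median WDM-minus-WT values of -0.16, -0.38 and -0.39 in untreated, tetracycline and arsenite cytosol, beside 0.01, 0.01 and 0.02 for other genes. The part of this shift in the SRSF6 result was not tested. In granules no member was called between lines with tetracycline or arsenite (0 with DESeq2), beside 5.55% and 7.95% of all genes. An unadjusted edgeR p under 0.05 was found for 1 member with tetracycline, SRSF6. With arsenite it was found for 2, SRSF3 (-0.39) and SRSF7 (-0.37). SRSF6 stood in granules at -0.85 (-1.46 to -0.23) with tetracycline and -0.55 (-1.12 to 0.02) with arsenite. For SRSF2, SRSF3, SRSF4, SRSF5, SRSF7, SRSF9, SRSF10 and SRSF11 in tetracycline cytosol the 95% intervals of the line difference lay between -0.50 and 0.18.

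The genes that overlap SRSF1 and SRSF6 and run on past their 3′ ends were described after their values were seen. ENSG00000266086 is free of other same-strand genes over 6068 bp directly 3′ of SRSF1 (chr17:57994851-58000918). In WT cytosol it held 20.2, 12.7 and 14.3 CPM with tetracycline and 38.4, 48.7 and 35.9 with arsenite, at 1.36 ± 0.19 on the log2 scale (edgeR adjusted p = 7.72e-05). In WDM cytosol it held 27.8, 17.5 and 26.2 CPM before and 55.3, 51.2 and 39.8 after (1.04 ± 0.18, 0.00055). Neither pair of groups overlapped. SRSF1 itself was at -0.22 (-0.86 to 0.41) and -0.13 (-0.82 to 0.56) in these comparisons. ENSG00000266086 was higher in granules than in cytosol with tetracycline (2.38 and 1.89), by less with arsenite in WT (0.49, adjusted p = 0.0488), and not called in WDM with arsenite (0.36, 0.133); the interactions were -1.89 and -1.53.

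ENSG00000288000 is free of other same-strand genes over 6966 bp directly 3′ of SRSF6 and over a stretch further on (chr20:43466047-43473012 and chr20:43473120-43489441). It held 0.601, 0.432 and 0.882 CPM in tetracycline WT cytosol, 5 to 10 counts, and 2.81, 2.22 and 1.86 with arsenite, 25 to 36 counts. The log2 fold change was 1.82 ± 0.37 in WT and 1.97 ± 0.36 in WDM (edgeR adjusted p = 0.00144 and 0.000703), while SRSF6 was at 0.03 (-0.32 to 0.38) and 0.04 (-0.34 to 0.42). In granules it was 0.76 ± 0.32 in WT (0.071) and 1.53 ± 0.33 in WDM (0.000782). Whether reads 3′ of SRSF1 and SRSF6 belong to transcripts of these SR genes was not tested.

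**Figure D5:**
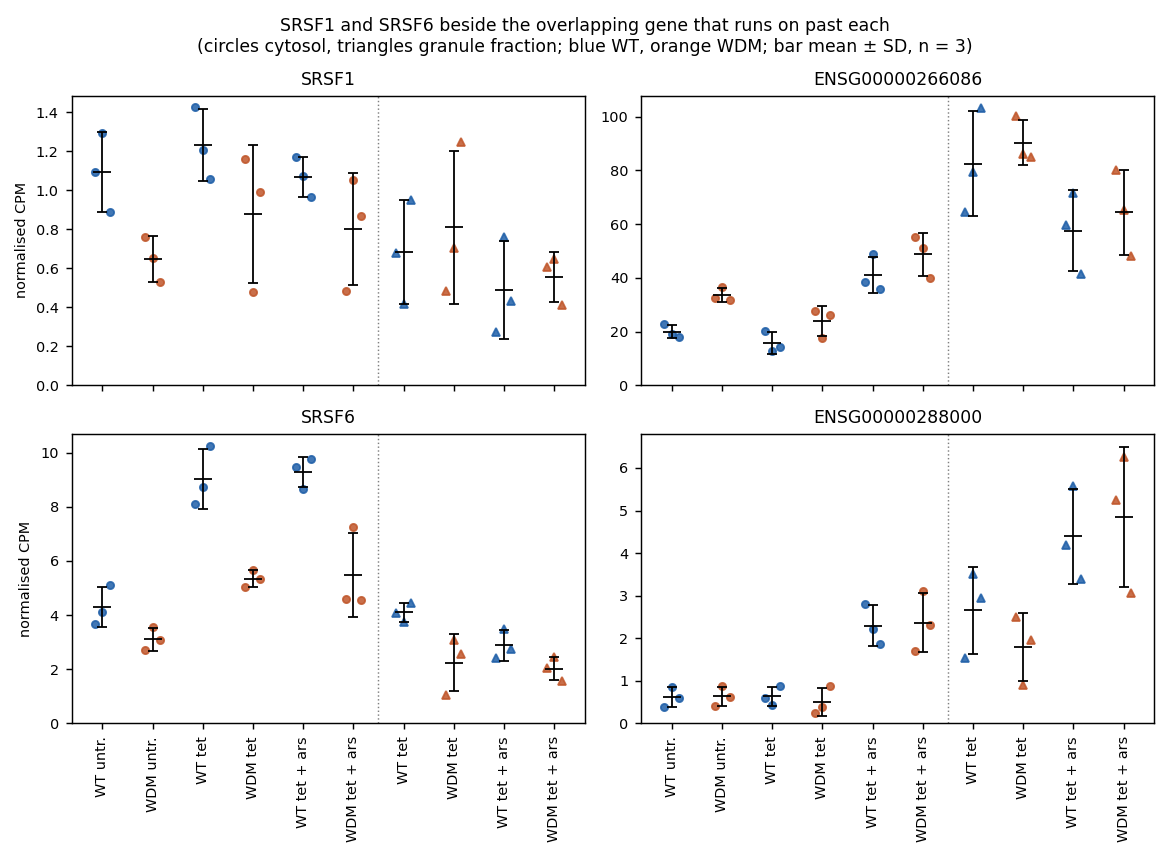
Normalised CPM (vertical axes, from 0) of SRSF1 and SRSF6 and of the gene that overlaps each and runs on past it, in the 30 libraries with mean and SD; circles are cytosol, triangles granules, blue WT, orange WDM. In WT cytosol ENSG00000266086 lies at 12.7 to 20.2 CPM with tetracycline and at 35.9 to 48.7 with arsenite, while SRSF1 stays below 1.5 CPM throughout.

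Genes most like 9 of the members over the 10 group means, after removing the mean of each fraction, were found by Pearson's r among 11510 genes. SRSF3 was most like DNAJA2 (r = 0.986), a co-chaperone, and SRSF10 was also most like DNAJA2 (0.977). SRSF7 was most like KIF18A (0.982), a mitotic kinesin, and SRSF2 like RBBP5 (0.983), a subunit of histone methyltransferases. SRSF4 was nearest CLUH (0.97), SRSF5 ZNF557 (0.98), SRSF6 KRBOX4 (0.971) and SRSF11 ZC2HC1A (0.981), and SRSF1, at few counts, DHX16 (0.944). Among pairs of members SRSF3 and SRSF10 were the most alike (0.961), followed by SRSF3 and SRSF7 (0.870). These values rest on 10 means that share libraries and scaling, and the nearest of 11510 genes is high by selection.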

How the data were processed

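The authors deposited raw read counts per gene for 30 libraries as 1 table, which was used as given. Libraries were stranded total RNA after rRNA removal, per the labels' protocols. Trimmomatic, STAR, Picard and featureCounts on GRCh38 are named in the submitters' processing notes; versions and settings are not given in the sources used here. Groups came from the sample titles. The members and gene lists were chosen with earlier results of these data known.

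The tests on these counts used edgeR 4.0.16 (R 4.3.3): filterByExpr (minimum count 10, minimum total 15), TMM scaling, group-means model, robust quasi-likelihood F-test, Benjamini-Hochberg over all genes tested, called at an adjusted p under 0.05. Fits covered 18 cytosol libraries (16670 genes), 12 granule libraries (18366) and 24 tetracycline libraries (18141). Each of the 10 members passed each filter. SE is the fold change over the square root of F, with 95% intervals. There were 24 comparisons, 17 of them pairs of groups and 7 interactions. The members were named in each comparison; of each companion list, up to 3 called genes whose groups did not overlap could be named, by largest change. Of 60664 identifiers 60463 were found in GENCODE release 44, which gave overlaps and MANE lengths. Chi-square per degree of freedom between replicates was at least 1.63, so no library was counted as a repeat. Alternative settings were a replicate block, no filter, scaling by library size alone or by RLE factors, each library left out, groups compared alone, and DESeq2 1.42.0. The test was tried on simulated counts with known changes.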

Additional observations from a re-analysis of the deposited data

Results flagged for a closer look

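In 4 cases the granule-minus-cytosol difference of a member changed with arsenite by a test of the change itself (the interaction in edgeR, adjusted over all genes). In WDM cells the change was -0.62 for SRSF5, -0.86 for SRSF7 and -0.75 for SRSF11. The SRSF5 call was lost in 8 of 12 fits that left out a library and in 4 of 6 other settings. In WT cells the change was -0.55 for SRSF11. The median change of all genes was -0.17 in WDM and -0.21 in WT, so each member lies below that median. Leaving out the third WT tetracycline granule library brought SRSF11 in WT to -0.28.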

How the results depend on the processing

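No member changed direction with a call in any alternative run. Of the recounts of called members under the alternatives, 290 equalled the main count or stayed within 1.5 times it, and 40 did not. The 290 include comparisons in which 0 members were called both times. Members called between untreated lines went from 0 to 4 when the fit held the groups compared alone. With arsenite in cytosol the count went from 1 to 3 in WT with library size alone, and in WDM from 2 to 1 without the low-count filter and 0 with the groups compared alone. Arsenite against untreated WT gave 6 in place of 3 with the groups compared alone. Arsenite in WDM granules gave 2 in place of 4 with library size alone and without the filter. The arsenite change of the granule difference in WT gave 2 with library size alone, 0 with the groups compared alone and 2 with DESeq2, in place of 1. The cause was not tested.

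With a replicate block that count was 3. The main tests did not pair libraries by replicate number, and whether equal numbers share a culture was not tested. In cytosol 15 of 45 same-numbered pairs correlated above 0.1, and in granules 6 of 18. Of the libraries, 8 of 18 in cytosol and 6 of 12 in granules were most like one of their own number. In the fit of both fractions, which gave the count of 3, 32 of 84 pairs correlated above 0.1 (median r 0.06, against -0.02 for different numbers) and 15 of 24 libraries were most like one of their own number.

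Leaving out 1 library at a time gave, as lowest and highest counts, 0 and 5 for lines with tetracycline, 1 and 4 for tetracycline in WT, 0 and 2 for tetracycline in WDM, 1 and 2 for arsenite in either line in cytosol, 1 and 3 for arsenite against untreated in WT, 1 and 4 in WDM, 0 and 1 for arsenite in WT granules, 2 and 3 in WDM granules, and 0 and 2 for the arsenite change in WT. In the fraction comparisons the counts stayed between 7 and 9. Without the low-count filter the median of all genes for the arsenite change in WT was 0.00 in place of -0.21.

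Low counts limit SRSF1 (4 to 23 a library) most: its granule-minus-cytosol difference has a 95% interval of -1.60 to 0.07 in WT with tetracycline.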
